A study of Mus musculus with 30 samples.

Results

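Chromatin accessibility at 4 genes of the interferon regulatory factor (IRF) family, Irf1, Irf2, Irf4 and Irf8, was followed in cultured mouse splenic natural killer (NK) cells by ATAC-seq, in which a transposase cuts and tags open DNA. The members are all peaks that the deposited peak table names for 1 of these genes, 32 of 38526 peaks. Irf1 had 2 peaks, Irf2 16, Irf4 10 and Irf8 4, and 3 of the 32 lay at promoters, 13 were intergenic, 12 intronic and 4 exonic. All 32 passed the filter on low values, with means over all libraries of 55.7 to 1358 normalised counts, and none was at 0 in any library. The 30 libraries formed 8 groups. WT cells came from C57BL/6J mice. EP2/EP4KO cells (the KO) came from GzmbCre Ptger2-/- Ptger4fl/fl mice, which lack the prostaglandin E2 (PGE2) receptor EP2 in every cell and the receptor EP4 where the Cre, expressed from GzmbCre, has acted. The WT mice carried no Cre, so receptor loss and Cre cannot be told apart. Cells of both genotypes had spent 5 days in IL-2 and IL15:IL15Ra and were then kept for 5 h either untreated or with 100 ng/ml PGE2. The resting groups received no stimulus. In the stimulated groups the final 4 h were spent with an antibody that triggers NK1.1, an activating receptor of NK cells. Each group held 4 libraries, except PGE2-treated resting WT and untreated resting KO with 3 each. Ages of the animals were not given in the sources used here, and nothing in the labels ties the replicates to distinct mice or cultures. The p-values therefore measure only the spread between these libraries, which may be technical.

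IRF proteins bind repeats of GAAA through a conserved DNA-binding domain. IRF1 activates interferon-response and antigen-presentation genes, and IRF2 competes with it for the same sites. Both are known to be needed for normal NK cell development. IRF4 and IRF8 are close relatives that bind DNA weakly alone and strongly with partners such as PU.1 or BATF with a JUN protein. IRF4 is known as a factor induced by antigen receptor signals in T and B cells, and IRF8 as a factor of dendritic cells and monocytes that NK cells also use. PGE2 acts through EP2 and EP4, which raise cyclic AMP in lymphocytes.

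The promoters are shown first because the promoter peaks of these genes behaved differently from one another. Each line is the reference sequence from 250 bases before to 50 bases after the RefSeq start (RefSeq, GRCm38.p6, the assembly of mm10, plus strand), and all 4 members were matched. Capitals mark an IRF element (GAAA, any 2 bases, GAAA) or a STAT element (TTCNNNGAA).
Irf1, chr11:53769764-53770063: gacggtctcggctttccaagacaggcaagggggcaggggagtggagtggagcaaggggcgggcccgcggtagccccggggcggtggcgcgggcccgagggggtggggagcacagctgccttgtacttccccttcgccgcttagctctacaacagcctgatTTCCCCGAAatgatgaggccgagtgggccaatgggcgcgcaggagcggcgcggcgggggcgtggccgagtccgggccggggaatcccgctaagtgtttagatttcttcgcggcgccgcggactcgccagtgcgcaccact
Irf2, chr8:46739495-46739794: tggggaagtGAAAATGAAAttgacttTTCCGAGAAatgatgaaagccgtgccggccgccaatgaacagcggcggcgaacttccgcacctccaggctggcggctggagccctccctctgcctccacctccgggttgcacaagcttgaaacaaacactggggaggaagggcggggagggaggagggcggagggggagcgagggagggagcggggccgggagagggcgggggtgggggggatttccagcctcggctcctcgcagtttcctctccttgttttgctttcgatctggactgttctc
Irf4, chr13:30748983-30749282: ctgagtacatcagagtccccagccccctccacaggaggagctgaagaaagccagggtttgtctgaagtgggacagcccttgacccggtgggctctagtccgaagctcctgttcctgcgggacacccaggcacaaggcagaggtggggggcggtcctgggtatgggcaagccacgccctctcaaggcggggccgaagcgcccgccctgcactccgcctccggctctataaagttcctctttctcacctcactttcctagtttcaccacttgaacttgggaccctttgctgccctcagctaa
Irf8, chr8:120736108-120736407: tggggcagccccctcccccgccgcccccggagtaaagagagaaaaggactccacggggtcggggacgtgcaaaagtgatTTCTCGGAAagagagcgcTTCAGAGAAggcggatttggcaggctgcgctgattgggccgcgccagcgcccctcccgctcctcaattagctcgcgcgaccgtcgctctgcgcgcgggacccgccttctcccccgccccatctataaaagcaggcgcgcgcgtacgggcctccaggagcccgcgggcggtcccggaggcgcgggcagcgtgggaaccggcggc

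The Irf1 window held 1 STAT element, starting 90 bases before the start. The Irf8 window held 2, starting 171 and 153 bases before it. The Irf2 window held an IRF element at 241 and a STAT element at 224 bases before the start. On both strands, and over 32851 such windows of all genes, a STAT element was found in 8.3% and an IRF element in 3.44%, and both together in 0.454%. The Irf2 window also held a loose NF-kB match (GGG, any 2 bases, TTTCC, in 1.63% of windows) at 17 bases and, overlapping its STAT element, an NFAT match on the minus strand (GGAAAA, 23.4%) at 226 bases before the start. The Irf4 window held none of these 4 motifs, nor AP-1 (TGANTCA, 7.81%), CRE (TGACGTCA, 1.79%), RUNX (TGTGGT, 16.8%) or the stricter NF-kB motif, GGGAC followed by TTTCC (0.155%). A match is a run of letters and not a measured binding site.

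Libraries held 8444350 to 20153816 reads in peaks. Peaks were found near 8 of 8 NK cell marker genes, with a summed level of 21738 to 27834 normalised counts per library. T cell markers had peaks at 5 of 8, with none for Cd3g, Cd4 or Cd8a. Dendritic cell markers had peaks at 6 of 8, with none for Clec9a or Siglech, and monocyte and macrophage markers at 5 of 6, with none for Lyz2. In WT cells the monocyte and macrophage sum was 2091 to 2394 at rest and 1557 to 1707 with stimulation, and the T cell sum was 5767 to 6442 and 5069 to 5604. The dendritic cell sum was 5771 to 6078 with stimulation and 6470 to 6840 with stimulation and PGE2, and the NK cell sum was 24494 to 27834 and 21778 to 24326. At rest the NK cell sum was 24977 to 27429 untreated and 21848 to 24706 with PGE2. In resting KO cells it was 21738 to 22913 untreated, below every untreated resting WT library, and 21856 to 25582 with PGE2. In stimulated KO cells it was 24489 to 27454 without and 24037 to 25962 with PGE2. In untreated KO cells the monocyte and macrophage sum was 1857 to 2523 at rest and 1698 to 1973 with stimulation, which overlapped. The T cell sum there was 5354 to 5802 and 4652 to 5229. The dendritic cell sum in stimulated KO cells was 5894 to 6398 without and 5794 to 6444 with PGE2, which overlapped. The part of these shifts in the results below was not tested. In bulk libraries, fewer cells of a type and less open DNA per cell cannot be told apart.

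NK1.1 stimulation raised 7 of 10 Irf4 peaks and all 4 Irf8 peaks. It raised 5 and lowered 6 of 16 Irf2 peaks, and it raised the distal Irf1 peak while lowering the Irf1 promoter. In untreated WT cells 17 of 32 peaks rose and 7 fell (limma on log2 of the normalised count plus 1, Benjamini-Hochberg adjusted p under 0.05 over all 38525 tested peaks), where 56.3% of all tested peaks were called, 28.9% as higher and 27.4% as lower. With quantile normalisation 15 of the 32 were called higher and 9 lower, where 61.4% of all peaks were called. The median log2 change of the 32 in the main fit was 0.39, beside -0.02 over all tested peaks. With PGE2 present during stimulation, compared with stimulation alone, 8 peaks rose and 13 fell in WT, where 40.5% of all peaks were called, 20.2% as higher and 20.4% as lower. The medians were -0.24 and -0.01. Many of these rises rested on single libraries: 4 remained without replicate 1 or 4 of either stimulated WT group. The falls numbered 12 to 14 when 1 library was left out. These comparisons share the stimulated untreated libraries, so their values are set side by side below and not correlated.

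The Irf4 locus moved most. Of its 10 peaks, 7 rose with stimulation in WT and none fell, with a median log2 change of 2.35. PGE2 during stimulation lowered 8 and raised 1, with a median of -1.04. The peak with the largest change of the 32 lay 39.0 kb after the start, in intergenic DNA (chr13:30787729-30788768). Its normalised counts were 22.0, 22.4, 10.8 and 25.1 in untreated resting WT and 20.9, 26.5 and 33.7 in PGE2-treated resting WT. They were 368, 309, 357 and 451 in stimulated WT and 144, 134, 123 and 125 in stimulated WT with PGE2. No library of one stimulated WT group reached the range of the other, and both lay above all resting libraries. The log2 change with stimulation was 4.19 ± 0.25 (SE), an 18.3-fold rise (limma adjusted p = 6.72e-17). The change with PGE2 during stimulation was -1.48 ± 0.25 (limma adjusted p = 9.3e-06). In the KO the counts were 449, 351, 475 and 459 with stimulation and 367, 299, 564 and 450 with stimulation and PGE2, and these overlapped.

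**Figure D1:**
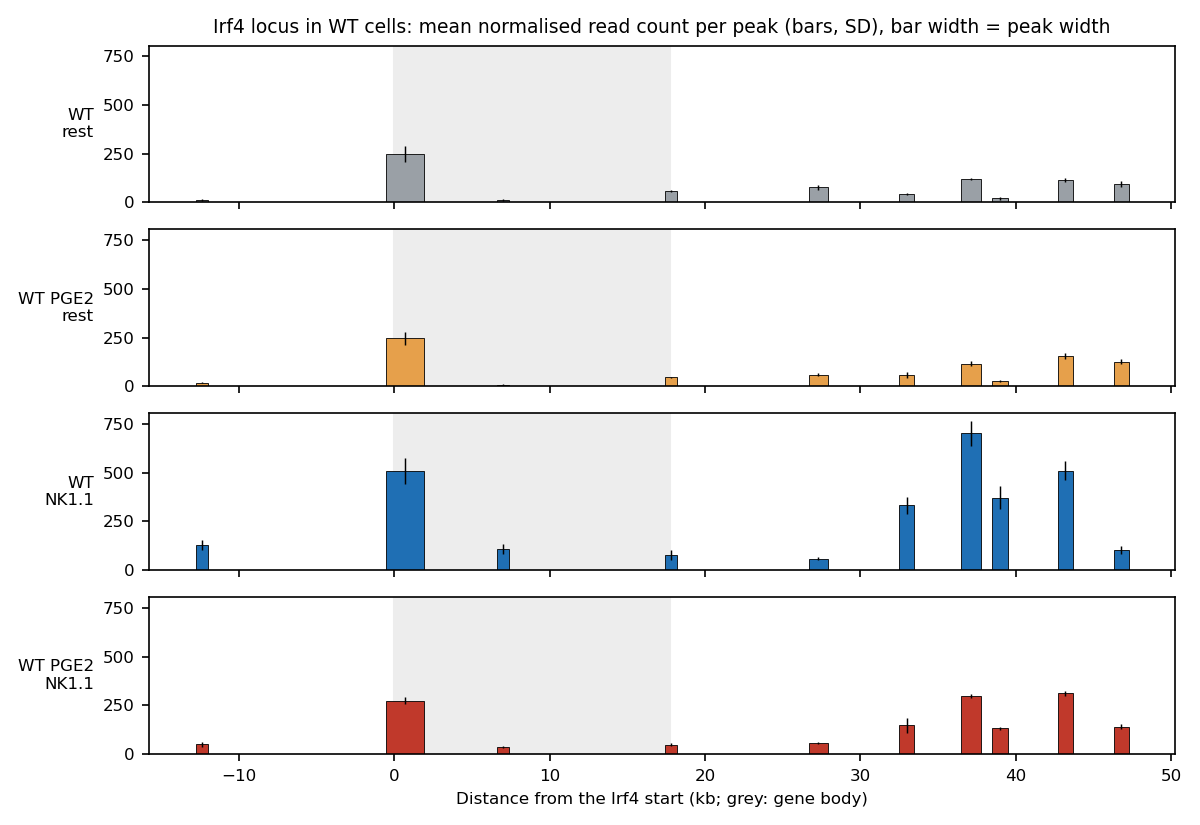
Mean normalised read count (y axis) of the 10 Irf4 peaks in the 4 WT groups against the distance of the peak from the Irf4 start in kb (x axis). Bars are group means of 3 or 4 libraries as wide as the peak, with SD, and grey marks the gene body. Peaks between 33.0 and 43.2 kb were tall with NK1.1 stimulation and shorter with PGE2, while the peaks at 27.3 and 46.8 kb did not follow them.

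The 3 neighbours of this peak showed the same order of untreated resting, PGE2-treated stimulated and untreated stimulated WT, from lowest to highest. At 37.1 kb (chr13:30785674-30786967) counts were 120, 123, 111 and 117 in resting WT and 786, 634, 712 and 680 with stimulation. With stimulation and PGE2 they were 308, 296, 281 and 301, below every stimulated and above every resting WT library. The log2 changes were 2.56 ± 0.14 with stimulation (limma adjusted p = 5.56e-18) and -1.24 ± 0.14 with PGE2 during it (limma adjusted p = 4.91e-09). The peak at 33.0 kb (chr13:30781769-30782737) went from 44.0 ± 6.5 (SD, n = 4) to 333 ± 45.0 (n = 4) with stimulation, and was at 147 ± 37.1 (n = 4) with PGE2 as well. The peak at 43.2 kb (chr13:30791986-30792948) went from 116 ± 9.47 to 511 ± 47.7 and was at 311 ± 11.9 (SD, n = 4 each). Its PGE2 change of -0.71 ± 0.13 was smaller than that of -1.20 ± 0.20 at 33.0 kb, a difference between peaks that was not tested.

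The Irf4 promoter peak (0.7 kb, chr13:30748690-30751150, which covers the start) had 230, 215, 306 and 236 counts in resting WT. Stimulation gave 562, 415, 511 and 550. With PGE2 added the counts were 267, 257, 286 and 290, within the range of the resting libraries. The stimulation change was 1.05 ± 0.11 (limma adjusted p = 2.14e-10) and the PGE2 change -0.88 ± 0.11 (limma adjusted p = 3.62e-08). Under PGE2, stimulation changed the promoter by 0.16 ± 0.12 (limma adjusted p = 0.397). Small peaks 12.4 kb before the start and in an intron at 7.0 kb rose from 13.7 ± 5.49 to 130 ± 26.7 and from 11.8 ± 3.32 to 107 ± 25.0 (SD, n = 4 each). They were at 49.3 ± 14.1 and 36.6 ± 5.77 with PGE2 as well.

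Not every Irf4 peak followed in WT. The exonic peak at 17.8 kb did not pass the test with stimulation in WT (0.41 ± 0.21, limma adjusted p = 0.0957) and fell with PGE2 (-0.67 ± 0.21, limma adjusted p = 0.0104). In the KO it rose with stimulation (0.90 ± 0.23, limma adjusted p = 0.00102). The difference between genotypes in this change, -0.49 ± 0.31, did not pass. The peak at 27.3 kb passed neither of the tests in WT (-0.39 ± 0.19 with stimulation and -0.04 ± 0.19 with PGE2 during it). The peak at 46.8 kb (chr13:30795597-30796562), described here after its values were seen, lay only a few kb beyond the 43.2 kb peak. It had 95.1, 88.1, 136 and 98.9 counts with stimulation and 158, 132, 133 and 142 with stimulation and PGE2. The ranges overlapped, and the change was a rise of 0.45 ± 0.17 (limma adjusted p = 0.0296).

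**Figure D2:**
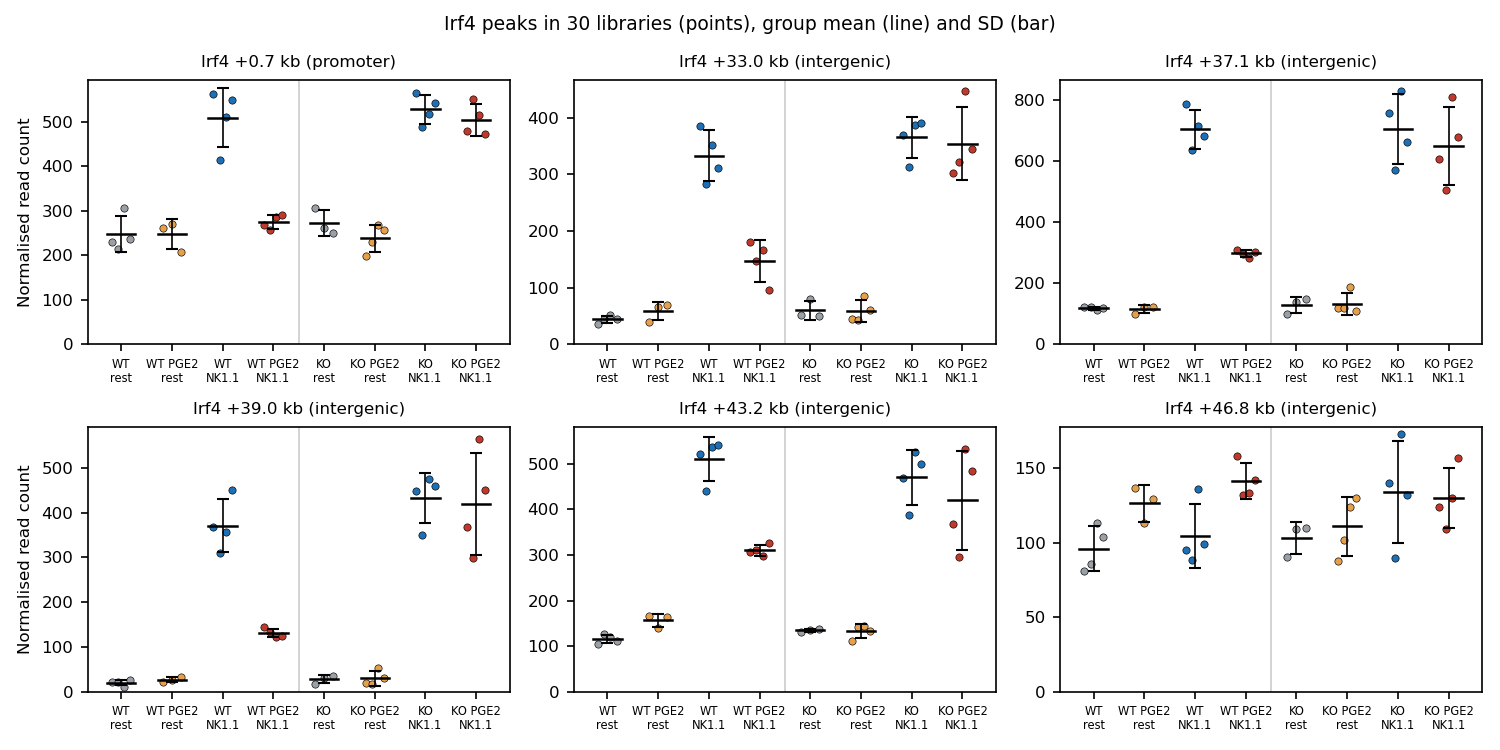
Normalised read count (y axis) of 6 Irf4 peaks in each of 30 libraries (points) by group (x axis), with group mean (line) and SD (bar), n = 3 or 4. At 39.0 kb the stimulated WT libraries sit at 309 to 451 and those with PGE2 at 123 to 144, while the KO groups overlap. The 46.8 kb peak shows no such step.

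All 4 Irf8 peaks rose with stimulation, by 1.01 to 1.34 on the log2 scale in WT. The promoter peak (0.4 kb, chr8:120735769-120737690) had 823, 811, 858 and 707 counts in resting WT and 1755, 1625, 1458 and 1594 with stimulation. With stimulation and PGE2 it had 1329, 1218, 1103 and 979, between both groups without overlap. The changes were 1.01 ± 0.10 with stimulation (limma adjusted p = 3.24e-11) and -0.48 ± 0.10 with PGE2 during it (limma adjusted p = 0.000129). It was the only 1 of the 4 to pass the PGE2 test during stimulation.

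The 3 Irf8 peaks inside the gene fell short of that threshold. The intronic peak at 4.3 kb (chr8:120740390-120741015) had 148, 197, 169 and 164 counts in resting WT, 471, 377, 377 and 414 with stimulation, and 411, 406, 318 and 329 with PGE2 as well. The stimulated groups overlapped (-0.17 ± 0.12, limma adjusted p = 0.296). The exonic peak at 11.4 kb (chr8:120747154-120748433) was at 99.0 ± 17.8, 231 ± 33.0 and 186 ± 33.4 in the same order (SD, n = 4 each), with a PGE2 change of -0.32 ± 0.14 (limma adjusted p = 0.0759). The intronic peak at 14.5 kb (chr8:120750584-120751217) was at 71.7 ± 24.7, 178 ± 21.5 and 135 ± 26.0, with a PGE2 change of -0.41 ± 0.19 (limma adjusted p = 0.0868). Over 30 libraries the 4 Irf8 peaks correlated with one another at Pearson r of 0.87 to 0.93, a description over libraries that share their groups and depth.

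The 2 Irf1 peaks moved in opposite directions. The promoter peak (0.6 kb, chr11:53769458-53771756) had 1763, 1848, 1502 and 1616 counts in resting WT and 1240, 1359, 1123 and 1093 with stimulation, without overlap. It fell by 0.48 on the log2 scale (SE 0.10, limma adjusted p = 6.23e-05). With stimulation and PGE2 the counts were 1333, 1516, 1310 and 1400, which overlapped those of stimulation alone (0.21 ± 0.10, limma adjusted p = 0.0851). The intergenic peak at 9.1 kb (chr11:53778703-53779464), just beyond the end of the gene, had 67.5, 70.9, 76.6 and 66.9 counts in resting WT. It had 135, 131, 157 and 118 with stimulation and 65.6, 64.7, 51.0 and 62.6 with stimulation and PGE2. The PGE2-treated stimulated libraries all lay below the untreated resting ones, and they overlapped PGE2-treated resting WT, at 59.5, 43.9 and 62.0. Under PGE2, stimulation changed the peak by 0.15 ± 0.17 (limma adjusted p = 0.61). The changes with stimulation and with PGE2 during it were 0.93 ± 0.16 (limma adjusted p = 4.34e-06) and -1.14 ± 0.16 (limma adjusted p = 2.83e-07). Across the 30 libraries the r between the promoter and the distal peak was -0.78.

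Irf2 was mixed, as were all tested peaks, of which 28.9% were called higher and 27.4% lower with stimulation in WT. Of its 16 peaks 5 rose and 6 fell with stimulation, with a median log2 change of -0.03, beside -0.02 over all tested peaks. With PGE2 during stimulation 7 of the 16 rose and 3 fell, with a median of 0.23 beside -0.01. In that comparison 20.2% of all tested peaks were called higher and 20.4% lower. A difference of Irf2 from all peaks was not tested. The peak that covers the Irf2 start (chr8:46739182-46741936) is named for Gm16675 in the deposited table and so is not among the 16. It held 2214 ± 132 counts in resting WT, 2111 ± 43.2 with stimulation and 2139 ± 70.5 with stimulation and PGE2 (SD, n = 4 each), and its stimulation change of -0.07 ± 0.07 did not pass the test (limma adjusted p = 0.414). The intronic peak at 92.9 kb (chr8:46832240-46833032) had 26.7, 50.5, 31.4 and 35.8 counts in resting WT. It rose to 130, 161, 162 and 187 with stimulation and was at 65.6, 94.8, 66.2 and 102 with PGE2 as well. The 3 groups did not overlap, and the changes were 2.15 ± 0.20 (limma adjusted p = 8.74e-12) and -0.97 ± 0.20 (limma adjusted p = 0.000128).

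Other Irf2 peaks went the other way. The exonic peak at 105.3 kb (chr8:46844368-46845641), near the end of the gene, had 759, 793, 760 and 720 counts in resting WT and 464, 554, 446 and 420 with stimulation. With PGE2 as well it had 703, 678, 734 and 642, all above stimulation alone. It fell by 0.69 with stimulation on the log2 scale (SE 0.11, limma adjusted p = 6.48e-07), and PGE2 during stimulation changed it by 0.55 ± 0.11 (limma adjusted p = 5.47e-05). The intergenic peak at 129.9 kb (chr8:46869199-46870149) had 432, 394, 435 and 467 counts with stimulation and 687, 714, 684 and 630 with stimulation and PGE2. It rose by 0.65 ± 0.08 (limma adjusted p = 1.53e-08), the largest rise with PGE2 among the 32 peaks in stimulated WT. The intergenic peak at 133.4 kb (chr8:46872811-46873555) rose with stimulation from 44.8 ± 16.4 to 129 ± 23.2 (SD, n = 4 each; 1.56 ± 0.22, limma adjusted p = 1.19e-07). With PGE2 as well it was at 102 ± 12.5, a change of -0.33 ± 0.22 that did not pass (limma adjusted p = 0.239). Pairs of Irf2 peaks had a median r of 0.02 over the 30 libraries, with 58 of 120 pairs below 0, beside a median of 0.72 for the 45 Irf4 pairs.

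**Figure D3:**
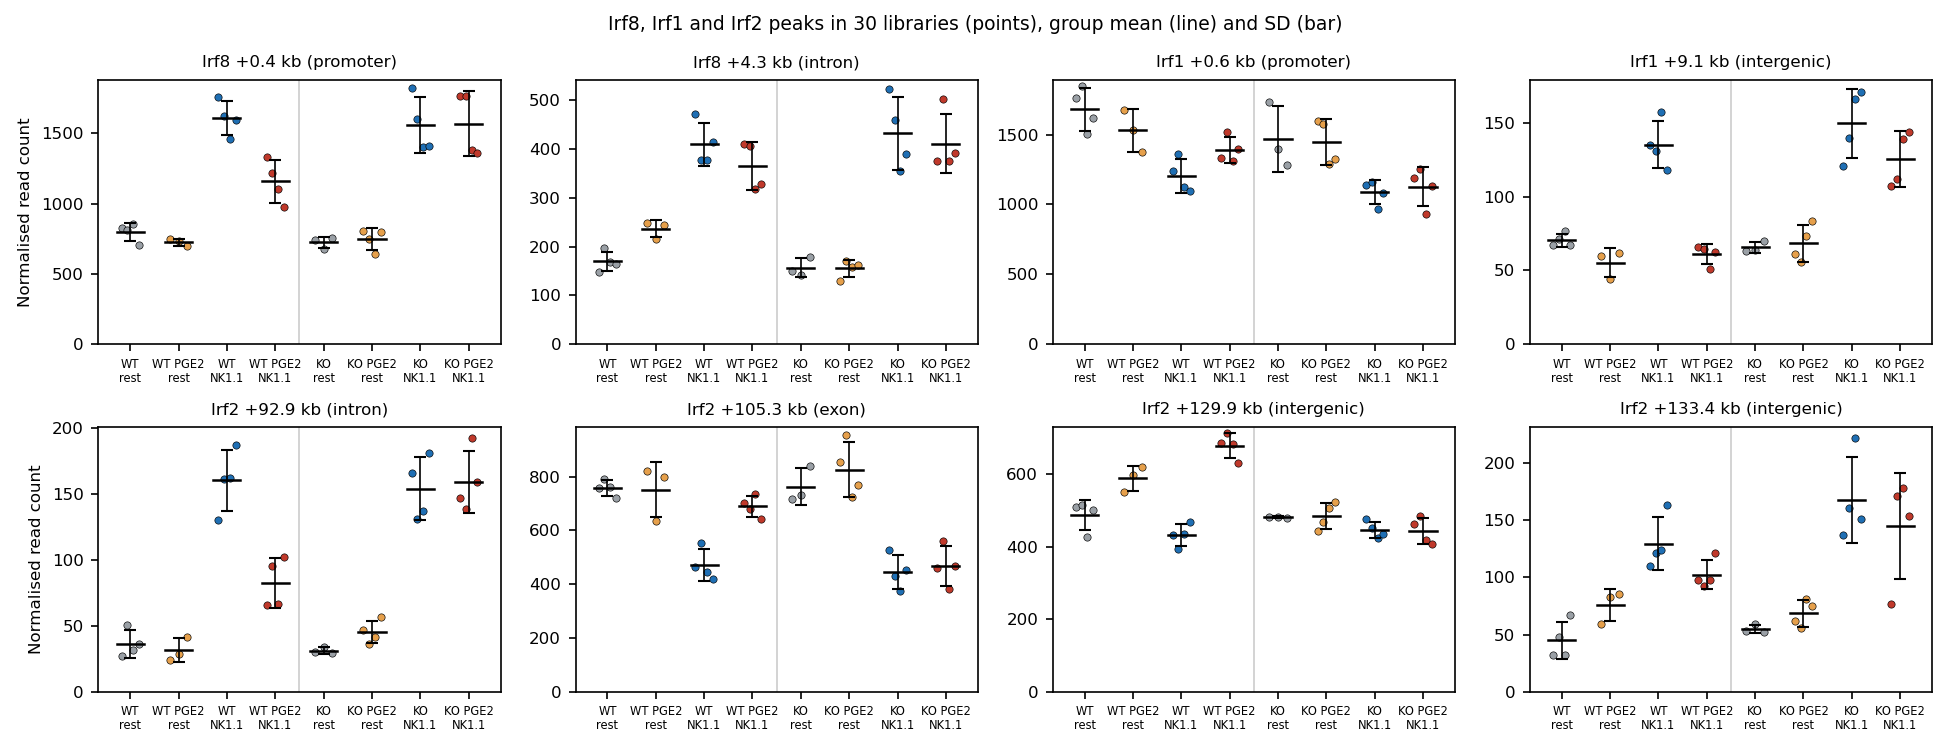
Normalised read count (y axis) of 8 peaks of Irf8, Irf1 and Irf2 in each of 30 libraries (points) by group (x axis), with group mean (line) and SD (bar), n = 3 or 4. The Irf8 promoter rises from 707 to 858 at rest to 1458 to 1755 with stimulation in WT, the Irf1 promoter falls, and the Irf2 peak at 129.9 kb is highest in the 2 WT groups with PGE2.

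Whether PGE2 changed the response to stimulation was tested directly, as the PGE2 change in stimulated WT minus that in resting WT. This interaction passed at 15 of 32 peaks, 4 higher and 11 lower, where 25.3% of all peaks were called (10.6% higher, 14.7% lower). Irf4 held 6 of the lower ones. At the Irf4 peak at 39.0 kb stimulation changed accessibility by 4.19 ± 0.25 without and 2.27 ± 0.27 with PGE2, an interaction of -1.93 ± 0.37 (limma adjusted p = 0.000164). At 37.1 kb it was -1.19 ± 0.21 (limma adjusted p = 4.37e-05) and at the promoter -0.88 ± 0.16 (limma adjusted p = 9.24e-05). Irf8 passed at 4.3 kb (-0.65 ± 0.18, limma adjusted p = 0.00646) and 14.5 kb (-0.89 ± 0.28, limma adjusted p = 0.018), and its promoter did not pass (-0.34 ± 0.14, limma adjusted p = 0.0763). At 4.3 kb the PGE2 change was -0.17 ± 0.12 in stimulated WT, which did not pass, and 0.49 ± 0.13 in resting WT, which did. At 14.5 kb the changes were -0.41 ± 0.19 and 0.48 ± 0.21, and neither passed alone. The Irf1 peak at 9.1 kb passed at -0.77 ± 0.23 (limma adjusted p = 0.0121). Irf2 passed in both directions, with -1.13 ± 0.32 at 133.4 kb and 0.57 ± 0.16 at 105.3 kb. At 133.4 kb the PGE2 change was -0.33 ± 0.22 in stimulated WT, which did not pass, and 0.80 ± 0.24 in resting WT, which did. Stimulation in the presence of PGE2 still raised 12 of 32 peaks and lowered none (16.5% of all peaks called, 12.7% higher and 3.8% lower), 6 of them at Irf4, 3 at Irf8 and 3 at Irf2.

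**Figure D4:**
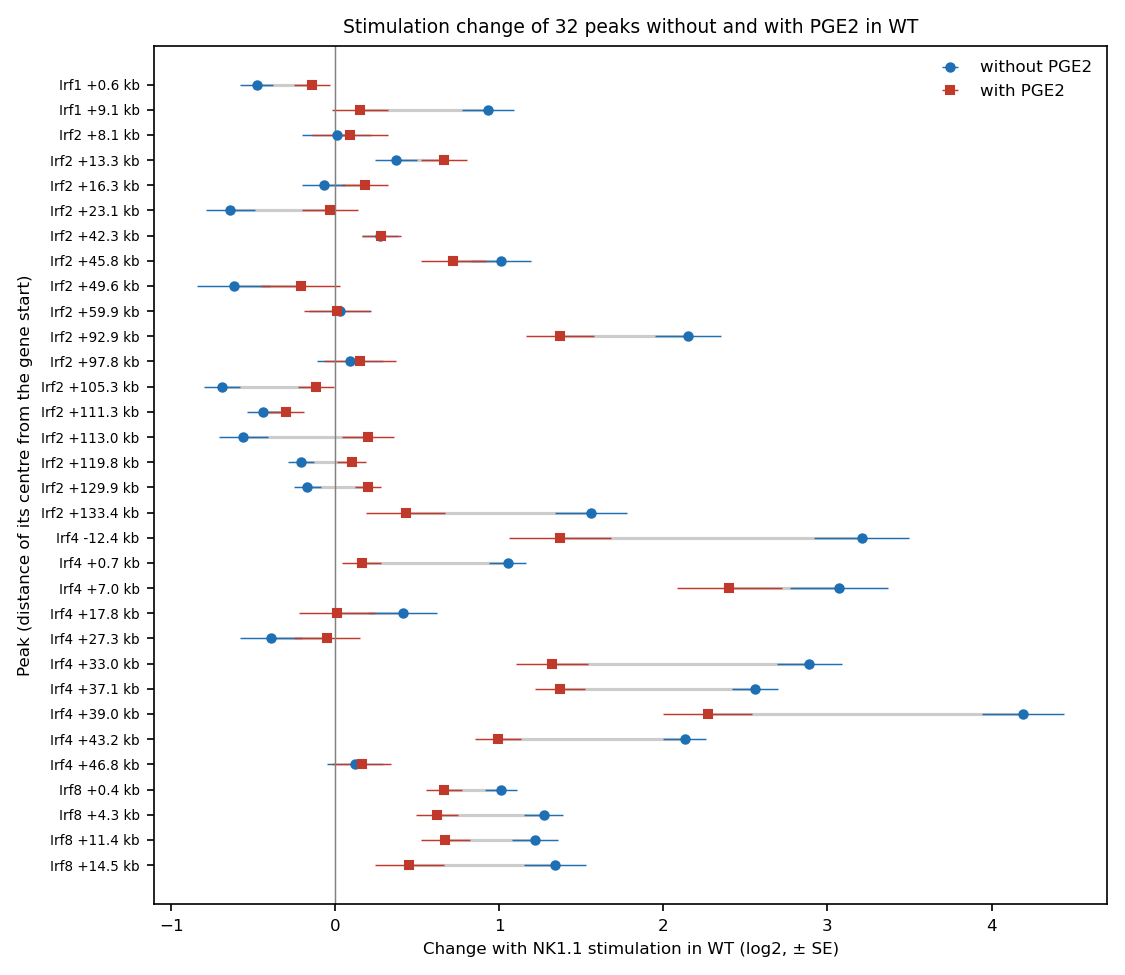
Log2 change with NK1.1 stimulation in WT (x axis, ± SE) for each of the 32 peaks (y axis, by gene and distance from the start), without PGE2 (blue circles) and with PGE2 (red squares). The Irf4 peak at 39.0 kb moves from 4.19 to 2.27 and the Irf8 promoter from 1.01 to 0.66, while Irf2 peaks that fell without PGE2 lie nearer 0 with it.

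PGE2 without stimulation changed 5 of these peaks. In resting WT 4 of 32 rose and 1 fell, a share close to that over the whole table, where 14.9% of all peaks were called (10.9% higher, 4.03% lower). The Irf8 peak at 4.3 kb had 249, 216 and 245 counts with PGE2, above the 4 untreated libraries (0.49 ± 0.13, limma adjusted p = 0.00826). The Irf4 peak at 43.2 kb had 166, 140 and 164, above the untreated 104, 126, 120 and 112 (0.43 ± 0.14, limma adjusted p = 0.0257), a call lost with quantile normalisation (0.36, limma adjusted p = 0.0838). The Irf2 peaks at 129.9 kb (0.27 ± 0.08, limma adjusted p = 0.0214) and 133.4 kb (0.80 ± 0.24, limma adjusted p = 0.0164) rose. The Irf2 peak at 111.3 kb (chr8:46850230-46851831) fell from 427 ± 29.2 (SD, n = 4) to 305 ± 34.5 (n = 3), by 0.49 on the log2 scale (limma adjusted p = 0.00115). The count rested on single libraries: it was 3 without untreated resting WT replicate 1 or 3 or PGE2-treated resting WT replicate 3, and 2 without PGE2-treated resting WT replicate 4. The calls lost in such fits were those of Irf4 at 43.2 kb and of Irf2 at 129.9 and 133.4 kb.

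In the KO, stimulation opened and closed nearly the peaks it did in WT, and no peak passed the test for PGE2. Stimulation of untreated KO cells raised 18 peaks and lowered 5, where 54.5% of all peaks were called (28.1% higher, 26.4% lower). Of these 23 and the 24 called in WT, 22 were shared, all in the same direction. They were 95.7% of the KO calls and 91.7% of the WT calls, beside 86.9% and 84.1% over all tested peaks. The stimulation changes of both genotypes differed at 0 of 32 peaks by limma (0.00779% of all peaks called; 0 at an unadjusted p under 0.05, and 0 by edgeR and DESeq2). With quantile normalisation the KO calls were 17 higher and 8 lower. PGE2 in resting KO cells changed 0 of 32 peaks by limma (0% of all peaks called; 1 at an unadjusted p under 0.05, 0 by edgeR and DESeq2). PGE2 in stimulated KO cells changed 0 of 32 by limma (0.0026% of all peaks called; 0 at an unadjusted p under 0.05, and 0 by edgeR and DESeq2). Under PGE2, stimulated KO cells had 18 peaks higher and 7 lower than resting ones (54.8% of all peaks called, 27.7% higher and 27.1% lower), or 16 and 10 with quantile normalisation.

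The difference between genotypes in the PGE2 change during stimulation, WT minus KO, was called at 15 of 32 peaks, 4 higher and 11 lower, where 20% of all peaks were called (10.2% higher, 9.8% lower). At the Irf4 peak at 39.0 kb PGE2 gave -1.48 ± 0.25 in WT and -0.07 ± 0.25 in the KO, a difference of -1.40 ± 0.35 (limma adjusted p = 0.00386). At the Irf4 promoter it gave -0.88 ± 0.11 and -0.07 ± 0.11, a difference of -0.81 ± 0.16 (limma adjusted p = 0.000191). At the Irf8 promoter it gave -0.48 ± 0.10 and 0.00 ± 0.10, a difference of -0.49 ± 0.14 (limma adjusted p = 0.0103). For the Irf1 peak at 9.1 kb the difference was -0.89 ± 0.22 (limma adjusted p = 0.00351), and for the Irf2 peak at 129.9 kb 0.66 ± 0.11 (limma adjusted p = 2.98e-05). The stimulation response in the KO and the PGE2 response in stimulated WT share no library. Of the 18 peaks that rose with stimulation in the KO, 12 were among the 13 that fell with PGE2 in stimulated WT, and 8 of those 12 belonged to Irf4. The 12 were 66.7% of the 18 and 92.3% of the 13, beside 56.8% and 78.3% over all tested peaks. Whether these shares differ was not tested.

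**Figure D5:**
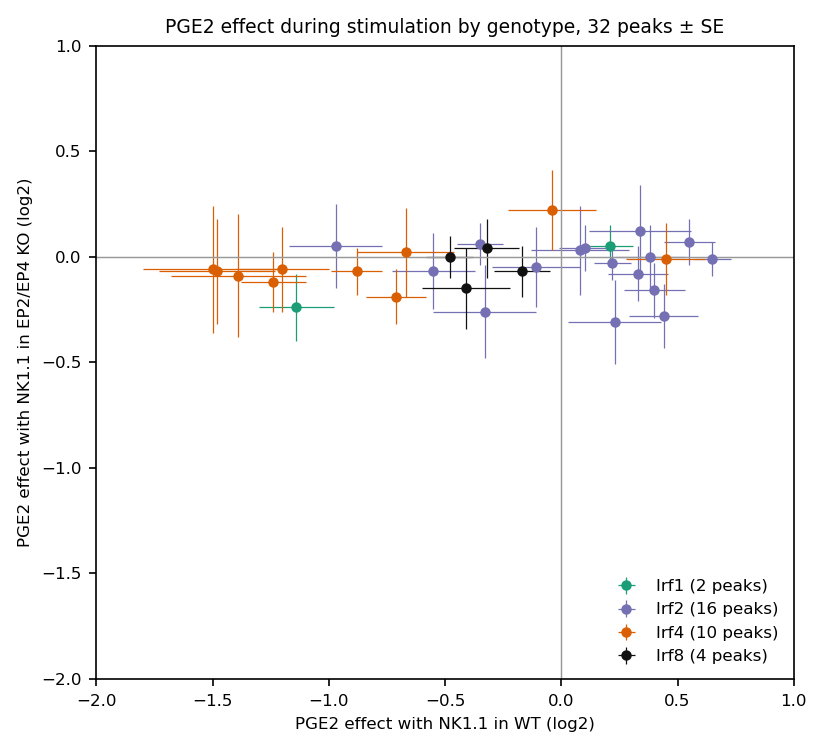
Log2 change with PGE2 during stimulation in WT (x axis) and in the KO (y axis), each ± SE, for the 32 peaks coloured by gene, on axes of the same length. The WT values run from -1.50 to 0.65 and the KO values from -0.31 to 0.22.

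The direct comparison of genotypes gave calls in the PGE2-treated groups. Untreated resting cells differed at 0 of 32 peaks by limma (1.73% of all peaks called; 2 at an unadjusted p under 0.05, 0 by edgeR and DESeq2). Untreated stimulated cells differed at 0 of 32 by limma (0.724% of all peaks called; 3 at an unadjusted p under 0.05, 0 by edgeR and DESeq2). With PGE2 and stimulation 14 peaks were higher and 6 lower in the KO (40.2% of all peaks called, 20.5% higher and 19.7% lower). With PGE2 at rest 1 was higher and 2 lower (14.4% of all peaks called, 5.46% higher and 8.99% lower), or 1 and 1 with quantile normalisation, and 5 in all were called without PGE2-treated resting KO replicate 4. These were Irf2 at 111.3 kb (0.58 ± 0.11), Irf2 at 129.9 kb (-0.28 ± 0.08) and Irf8 at 4.3 kb (-0.61 ± 0.13). The difference between genotypes in the PGE2 change at rest passed at 0 peaks by limma (6.18% of all peaks called; 7 at an unadjusted p under 0.05). It passed at 1 by edgeR and by DESeq2, the Irf2 peak at 111.3 kb, at which limma gave -0.49 ± 0.15 (adjusted p = 0.0518).

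The levels over all 8 groups can be put in order. At the Irf4 peak at 39.0 kb the means were 433 in stimulated KO, 420 in stimulated KO with PGE2, 371 in stimulated WT, 132 in stimulated WT with PGE2, 30.0 and 27.8 in resting KO with and without PGE2, and 27.0 and 20.1 in resting WT with and without PGE2. The first 3 did not differ by the tests made between them, and neither did the last 4. The Irf8 promoter had 1608 in stimulated WT, 1568 and 1559 in stimulated KO with and without PGE2, then 1157 in stimulated WT with PGE2, and 724 to 800 in the 4 resting groups, which did not differ by those tests.

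Peaks within 50 kb of a member gene that the table names for other genes were read by position, after the annotation was seen. Around Irf8, 14 such peaks carried the name Gm20388. With stimulation in WT 11 of them rose and 1 fell, and PGE2 during stimulation raised 1 and lowered 5. Over all tested peaks 28.9% were called higher and 27.4% lower with stimulation, and 20.2% and 20.4% with PGE2 during it. The peak 55.5 kb after the Irf8 start (chr8:120791131-120792546) went from 53.3 ± 14.4 at rest to 674 ± 23.4 with stimulation and was at 389 ± 72.7 with PGE2 as well (SD, n = 4 each). The peak at 50.7 kb (chr8:120786490-120787691) responded to PGE2 already at rest, with 303 ± 14.8 (n = 4) untreated and 692 ± 39.6 (SD, n = 3) with PGE2 (1.19 ± 0.11, limma adjusted p = 7.52e-11). Its stimulated level of 1130 ± 148 and that with PGE2 of 1035 ± 148 (SD, n = 4 each) did not differ by the test (limma adjusted p = 0.314). Around Irf1, 4 of 9 such peaks fell with stimulation and none rose, and 3 rose with PGE2 during it. Around Irf2, 1 of 3 was called in each comparison, 26.3 kb before the start, at 96.0 ± 20.1 at rest, 65.9 ± 7.71 with stimulation and 109 ± 10.5 with PGE2 as well (SD, n = 4 each). Around Irf4 there were 2, in Dusp22 and Exoc2, and both rose with stimulation and fell with PGE2 during it. Accessibility near a gene is not its expression, and no peak was tied to a gene by other data here.

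Among related genes, 36 peaks of 7 other IRF family genes (Irf3 had none) showed 12 rises and 9 falls with stimulation in WT, with a median log2 change of -0.04. PGE2 during stimulation raised 7 and lowered 10. Of all tested peaks 28.9% were called higher and 27.4% lower with stimulation, and 20.2% and 20.4% with PGE2 during it. A difference of these genes from all peaks was not tested. The Irf5 promoter went from 347 ± 18.8 to 855 ± 11.4 with stimulation and to 391 ± 59.4 with PGE2 as well (SD, n = 4 each). The Irf2bp1 peak, of a co-repressor that binds IRF2, went from 367 ± 31.5 to 1936 ± 108 and to 889 ± 27.1 (SD, n = 4 each). Partner and regulator genes held 176 peaks, of which 77 rose and 44 fell with stimulation and 37 rose and 42 fell with PGE2 during it. In this list the promoter of Batf3, a BATF-family partner of IRF4 and IRF8, went from 193 ± 14.1 to 905 ± 119 and to 405 ± 94.6 (SD, n = 4 each). An intronic peak of Bach2, a repressor in lymphocytes, went up with PGE2 during stimulation, from 719 ± 76.2 to 1503 ± 183 (SD, n = 4 each).

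Known IRF1, IRF2 and IRF8 target genes held 49 peaks (15 up and 14 down with stimulation, 10 up and 8 down with PGE2 during it). For this and the next lists, 28.9% of all tested peaks were called higher and 27.4% lower with stimulation in WT. With PGE2 during it 20.2% were called higher and 20.4% lower. No list was tested against all peaks. An intronic peak of Nlrc5 (chr8:94458110-94459249), the transactivator of MHC class I genes, rose with PGE2 during stimulation from 126 ± 15.4 to 395 ± 25.6 (SD, n = 4 each). It also rose with PGE2 at rest, from 241 ± 37.1 (SD, n = 4) to 512 ± 22.8 (n = 3). The promoter of the chemokine gene Cxcl10 fell with PGE2 during stimulation from 224 ± 12.6 to 108 ± 11.2 (SD, n = 4 each). Interferon receptor and proximal signalling genes held 54 peaks, with 15 up and 28 down with stimulation (median -0.22) and 22 up and 8 down with PGE2 during it (median 0.17). An exonic Tyk2 peak of this list went from 220 ± 13.4 to 750 ± 33.5 with stimulation and to 288 ± 14.5 with PGE2 as well (SD, n = 4 each). An intronic peak of Ifngr1, a chain of the interferon gamma receptor, was at 181 ± 13.2 (n = 4) in resting WT and 689 ± 48.0 (SD, n = 3) with PGE2. With stimulation it was at 154 ± 20.4 without and 568 ± 102 with PGE2 (SD, n = 4 each). IRF4 targets and partners of activated lymphocytes held 69 peaks, with 36 up and 13 down with stimulation (median 0.27) and 13 up and 18 down with PGE2 during it (median -0.09). An intronic peak of Il2ra, the alpha chain of the IL-2 receptor, went from 69.1 ± 15.9 to 472 ± 32.5 with stimulation and to 148 ± 9.34 with PGE2 as well (SD, n = 4 each).

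For each gene, the peak with the widest range over groups was compared with the peaks of other genes on other chromosomes by Pearson's r over the 30 libraries, as a description. The Irf4 peak at 39.0 kb was most like peaks of Kifc3 (r = 0.993), Coq8a (0.991) and 4930563J15Rik (0.991), and 3061 of 32809 candidates reached 0.9. The Irf2 peak at 92.9 kb was most like peaks of 2900026A02Rik (0.974), Klhl25 (0.974) and 4930459C07Rik (0.972). The Irf1 peak at 9.1 kb was most like peaks of Serpina3f (0.969), L3mbtl1 (0.959) and Kidins220 (0.955), and the Irf8 peak at 14.5 kb like those of Ubl3 (0.946), Zmynd8 (0.942) and Gramd4 (0.940). All points share their groups and depth, and by Spearman's rho 5 of these 12 genes were named again.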

How the data were processed

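ATAC-seq libraries of 30 NK cell samples were analysed. Per the submitters' processing notes, Trimmomatic 0.39, Bowtie2 2.4.1, MACS2 2.2.7.1, DESeq2 and the build mm10 were used. No source used here says how duplicates or the Tn5 cut offset were treated. The deposited signal per peak is, per the file headers, a read count normalised by the authors, and it behaves as counts over 1 factor for each library: 100% of values were whole multiples of 1 read (tolerance 0.05, largest deviation 0.0402). This gave 8444350 to 20153816 reads in peaks per library. The member peaks had at least 3 reads in every library.

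Groups followed the labels. The test was limma 3.58.1 (R 4.3.3) with trend on log2(normalised count + 1), 1 mean per group over all 30 libraries, two-sided, with no replicate block. Log2 changes are on this scale, which understates changes of low peaks. A minimum mean of 10 left 38525 peaks and removed 1, and calls used a Benjamini-Hochberg adjusted p under 0.05 within a comparison. The script was tested on simulated data. Alternatives were pseudocounts of 0.5 and 8, no filter or a mean of at least 50, TMM and quantile scaling, edgeR 4.0.16 and DESeq2 1.42.0 on recovered reads, the contrast's own groups, a replicate block, and leaving out each library. Distances are from the RefSeq start to the peak centre. Peaks picked for fuller description were each gene's promoter peak and its up to 4 peaks with the smallest p in the WT stimulation and PGE2 comparisons. Their values are given by library or as group mean and SD. From each list, up to 3 peaks per comparison by p were open to naming. The members and gene lists were chosen with earlier results of these data known. Conditioned medium, named in the series design, was not analysed here, and no sequence of distal peaks was used. A further marker list is not reported here.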

Additional observations from a re-analysis of the deposited data

Results flagged for a closer look

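Single libraries stood apart from the other 3 of their group in 3 of 90 groups of 4 tested, by the gap to the nearest library relative to the range; chance gives about 1 in 20 (5%). The Irf4 peak at 37.1 kb had 186 counts in PGE2-treated resting KO replicate 3, beside 107, 118 and 119. The Irf8 peak at 4.3 kb had 502 in PGE2-treated stimulated KO replicate 2, beside 375, 376 and 391. The Irf8 peak at 14.5 kb had 109 in untreated resting WT replicate 4, beside 57.9, 58.3 and 62.0.

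The PGE2 change during stimulation differed between genotypes, by the limma interaction (WT minus KO, log2), at 10 of the 15 peaks picked for fuller description. Those 15 were chosen by p in WT comparisons that share libraries with this one, so the count is a description. Over all 32 member peaks 15 were called, where 20% of all peaks were. Irf4 gave -0.81 at 0.7 kb, -1.15 at 33.0 kb, -1.12 at 37.1 kb, -1.40 at 39.0 kb and -0.52 at 43.2 kb. Irf8 gave -0.49 at 0.4 kb and Irf1 -0.89 at 9.1 kb. Irf2 gave -1.02 at 92.9 kb, and values above 0 at 105.3 kb (0.49) and 129.9 kb (0.66).

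The PGE2 change in WT differed between stimulated and resting cells (stimulated minus resting, log2) at 12 of these 15 peaks, which the same choice affects. Over all 32 it was called at 15, where 25.3% of all peaks were. Irf4 gave -0.88 at 0.7 kb, -1.57 at 33.0 kb, -1.19 at 37.1 kb, -1.93 at 39.0 kb and -1.14 at 43.2 kb. Irf8 gave -0.65 at 4.3 kb and -0.89 at 14.5 kb, and Irf1 -0.77 at 9.1 kb. Irf2 gave -0.77 at 92.9 kb, -1.13 at 133.4 kb, 0.38 at 129.9 kb and 0.57 at 105.3 kb.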

How the results depend on the processing

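No peak picked for fuller description reversed direction. The balance of calls turned for the KO against WT with PGE2 at rest, from 1 higher and 2 lower to 3 and 2 with the replicate block and 3 and 1 without PGE2-treated resting WT replicate 4, and for no other comparison. Over the alternatives that kept all libraries, 155 of 160 counts of called member peaks stayed within 1.5 times, and 279 of 281 values for single peaks and the likeness list were unchanged in direction and call. The exceptions were 5 calls with the replicate block for the KO against WT with PGE2 at rest (3 without it), and 1 instead of 0 for the genotype difference in the PGE2 change at rest with a mean of at least 50, the contrast's own groups, edgeR or DESeq2. The Irf4 rise at 43.2 kb with PGE2 at rest was 0.36 with quantile scaling (limma adjusted p = 0.0838), and 5 of 12 like genes were named again with Spearman's rho. Quantile scaling moved the median log2 change of all peaks with stimulation to -0.1145 in WT and -0.1335 in the KO, from -0.0212 and -0.0277; with PGE2 at rest in WT it gave 3 higher and 2 lower calls. On recovered whole reads edgeR called 21888 of all peaks with stimulation in WT and 16061 with PGE2 during it, beside 21692 and 15619 by limma, with 24 and 21 member peaks in both. The cause of these differences was not tested.

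Leaving out 1 library gave 2 to 5 called member peaks for PGE2 in resting WT, 2 to 5 for the KO against WT with PGE2 at rest, and 0 to 1 for the genotype difference at rest. It gave 21 to 25 for stimulation in WT, 22 to 25 in the KO, and 16 to 20 for PGE2 during stimulation in WT. With PGE2 during stimulation in WT, 8 peaks rose with all libraries. Only 4 rose without replicate 1 or 4 of either stimulated WT group, while 12 to 14 fell across the fits. With 1 library left out, 11 of 220 single values lost the call, all with PGE2 in resting WT. They were at Irf2 129.9 and 133.4 kb and Irf4 43.2 kb. The single values did not cover every called peak.

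Replicate numbers were not taken as pairs, since not every same-numbered pair of libraries had deviations from group means that correlated over 0.1. This is a strict condition, and missing it does not show that the numbers carry no pairing. Of the same-numbered pairs 39 of 99 did (median r 0.065, lowest -0.021, highest 0.526). Of pairs with different numbers 26 of 294 did (median -0.023, lowest -0.376, highest 0.234). Of 30 libraries, 26 correlated best with their own number, so libraries of 1 number shared a component. It was small by the median r but reached 0.526 in a pair. The labels do not say what a number stands for. With the replicate block 6694 of all peaks were called for PGE2 in resting WT, beside 5740 without it. For PGE2 during stimulation in WT the counts were 16939 and 15619. Apart from the 5 calls above, the replicate block left each count of called member peaks within 1.5 times. Peaks with few reads, such as Irf4 at 7.0 kb with as few as 3 reads, limit what small changes could be seen.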

Other observations

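PGE2 without stimulation changed single peaks of partner, target and receptor genes of these factors in resting WT, where 10.9% of all peaks were called higher and 4.03% lower. Of the lists, 31 of 176 peaks of partner and regulator genes rose and 12 fell. Of the peaks of IRF1, IRF2 and IRF8 target genes 8 of 49 rose and none fell, of those of IRF4 targets and partners 13 of 69 rose and 2 fell, of those of interferon receptor and signalling genes 10 of 54 rose and 3 fell, and of other IRF family genes 1 of 36 rose and none fell. Whether a list differed from all peaks was not tested. An intronic Bach2 peak went from 755 ± 38.8 (SD, n = 4) to 1401 ± 64.7 (n = 3). A peak of Nfil3, a transcription factor needed for NK cell development, went from 93.7 ± 10.4 (SD, n = 4) to 241 ± 26.8 (n = 3), and 1 of Bcl6, a repressor of activated lymphocytes, from 102 ± 9.72 to 210 ± 36.7. An intronic Nlrc5 peak (chr8:94453808-94454688), not the one described above, went from 59.2 ± 11.4 to 153 ± 30.8. An exonic peak of Socs1, an inhibitor of JAK kinases, went from 191 ± 15.9 (SD, n = 4) to 340 ± 19.1 (n = 3).

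In resting WT, where PGE2 raised 10.9% and lowered 4.03% of all peaks, 4 of the 14 peaks named Gm20388 near Irf8 rose and none fell. Besides those at 50.7 and 55.5 kb, they lay 10.7 kb before the Irf8 start, at 341 ± 28.6 untreated (SD, n = 4) and 515 ± 36.1 with PGE2 (n = 3), and 20.3 kb before it, at 1581 ± 66.3 and 1949 ± 121. The log2 changes were 0.59 ± 0.10 (limma adjusted p = 1.57e-05) and 0.30 ± 0.07 (limma adjusted p = 0.00287). The Irf8 promoter did not pass in the same comparison (-0.14 ± 0.11, limma adjusted p = 0.461).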
